A study of Mus musculus with 16 samples.

Results

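Macrophage markers were measured in RNA of the whole kidney of 16 mice, 1 mouse per one-color array, with 4 mice of each of 4 genotypes. The markers are 10 genes, Adgre1, Cd68, Csf1r, Mrc1, Cd163, Lyz2, Mertk, Trem2, Gpnmb, and Marco, chosen by name as genes of macrophages, out of 22911 genes named on the array. All 10 had a probe, and 14 probes stood for them. The groups are wild-type mice (WT), Fcgr2b-ko mice, written Fcgr2b-/- below, mice lacking both genes (Fcgr2b-ko, Sting-ko, written Fcgr2b-/-.Sting gt/gt or double-deficient), and Sting-ko mice (Sting gt/gt). Fcgr2b encodes the inhibitory Fc receptor for IgG, and its deletion on this background gives a lupus-like disease with glomerulonephritis. The Sting gt allele, called Goldenticket, acts as a functional knockout of Sting, an adaptor of cytosolic DNA sensing, and the groups tell how the markers stood in the diseased kidney and in the same disease model without Sting. All 16 mice were labelled as 6 months old. Both Fcgr2b-deficient groups carry the mixed 129/C57BL/6 background and the WT and Sting gt/gt mice the C57BL/6 background, so that strain and Fcgr2b genotype cannot be told apart. The study names both purchased WT mice and littermate controls, and which of these gave the WT kidneys is not given in the sources used here. For the lupus group the labels give no Sting allele, while a figure heading of the study gives this group 1 copy of Sting gt.

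Macrophages of the kidney lie in a network around the tubules and glomeruli. They depend on signals through the CSF1 receptor, they take up debris, immune complexes, and dying cells into lysosomes, and their number is maintained by resident cells and by monocytes that enter from the blood. In nephritis monocyte-derived cells accumulate, and cells that clear lipid and dead tissue carry Trem2 and Gpnmb. Levels are given as the log2 of the processed signal of the brightest probe of a gene minus the 75th percentile of its array, so that a step of 1 is 2-fold, and levels of different genes are not compared because they come from different probes. Tests cover the 35628 probes whose signal stood well above background in 4 or more mice. In bulk kidney RNA, more macrophages and more RNA per macrophage cannot be told apart.

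The check of the deleted gene and of the tissue came first. Fcgr2b was at 1.18 ± 0.44 (SD, n = 4) in the WT mice, −0.26 ± 0.34 in Fcgr2b-/- mice, and −0.56 ± 0.41 in double-deficient mice. Sting gt/gt mice were at 0.27 ± 0.70. All 8 arrays labelled as Fcgr2b-deficient lay below the 4 WT arrays, while the libraries labelled Sting gt/gt replicates 3 and 4, at 0.19 and −0.65, lay within the range of the deficient mice (−0.92 to 0.23). Replicate 4 was the 1 of these that lay below most of the deficient mice, and the main values of the Sting gt/gt comparisons are given without it as well. All 10 markers of proximal tubule, the main epithelium of the kidney cortex, were above background on each of the 16 arrays. Between 28441 and 35564 of 56605 probes stood well above background per array, and no spot was saturated. Precision is limited by the 4 mice of a group. Slide 1 carried 3 Fcgr2b-/- mice and 1 double-deficient mouse, slide 2 carried 1 and 3, and WT and Sting gt/gt mice were split 2 and 2.

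The markers were detected unevenly in the kidney. Adgre1, Cd68, Csf1r, Lyz2, and Mertk were above background on all 16 arrays, Mrc1 and Trem2 on 15, and Marco on 11. Cd163 and Gpnmb were above background on 2 arrays each and were not tested. Each of the 8 tested markers was above background in at least 4 mice outside the Fcgr2b-/- group. As sequence context for the genes whose values are set out below, the 250 bases upstream of the start of 3 markers whose levels were high in the Fcgr2b-/- mice (Cd68, Lyz2, Trem2) and of Mertk, whose levels differed little, are given 5′ to 3′ from RefSeq (GRCm38.p6). Cd68 lies at chr11:69666171-69666420 on the minus strand, Lyz2 at chr10:117282273-117282522 on the minus strand, Trem2 at chr17:48346151-48346400 on the plus strand, and Mertk at chr2:128698665-128698914 on the plus strand. Capitals mark GAGGAA, the core of the site of the myeloid factor PU.1, or TGACTCA, the site of AP-1, on either strand. The E-box CATGTG, a site of the MITF and TFE factors, was searched too and is in none of these 4.
Cd68: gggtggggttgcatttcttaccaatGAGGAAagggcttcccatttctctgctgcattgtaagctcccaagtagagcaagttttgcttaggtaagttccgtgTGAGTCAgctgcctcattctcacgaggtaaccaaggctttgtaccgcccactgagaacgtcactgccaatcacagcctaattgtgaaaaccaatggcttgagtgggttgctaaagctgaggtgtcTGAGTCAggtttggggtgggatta
Lyz2: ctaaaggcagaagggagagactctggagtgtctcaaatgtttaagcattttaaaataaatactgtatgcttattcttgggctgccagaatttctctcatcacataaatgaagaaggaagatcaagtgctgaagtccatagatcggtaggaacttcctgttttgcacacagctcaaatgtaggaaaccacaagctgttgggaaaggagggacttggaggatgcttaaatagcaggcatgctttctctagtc
Trem2: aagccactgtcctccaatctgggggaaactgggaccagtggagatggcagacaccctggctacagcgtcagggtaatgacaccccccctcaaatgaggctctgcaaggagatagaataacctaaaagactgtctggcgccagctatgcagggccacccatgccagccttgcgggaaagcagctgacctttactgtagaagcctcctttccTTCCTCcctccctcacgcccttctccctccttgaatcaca
Mertk: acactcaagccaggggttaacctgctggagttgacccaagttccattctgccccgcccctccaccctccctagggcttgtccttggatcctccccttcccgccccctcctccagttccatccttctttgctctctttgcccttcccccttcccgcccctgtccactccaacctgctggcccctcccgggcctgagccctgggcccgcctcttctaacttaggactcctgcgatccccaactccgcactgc
Promoters of 8 markers were searched, and those of Adgre1 and Csf1r were not. Of the 8, 4 (Cd68, Mrc1, Trem2, Marco) held GAGGAA, against 23.3% of all 32851 promoters of this length. TGACTCA was in 1 of the 8, Cd68, which held it 2 times, against 4.5% of all promoters. CATGTG was in 1, Mrc1, against 12.3%. The motifs do not overlap in the sequences shown, and a match of letters is a description and not a bound site.

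In the Fcgr2b-/- mice, 7 of the 8 tested markers lay higher than in the WT mice, by 1.78-fold for Csf1r up to 15.1-fold for Trem2 (44.7% of all probes were higher), and Mertk lay 1.04-fold lower. Replicates 1 and 4 of the Fcgr2b-/- mice carried the highest level of Adgre1, Cd68, Csf1r, Mrc1, Lyz2, Trem2, and Gpnmb among the 16 mice, and replicates 2 and 3 lay closer to the other genotypes. A call asked for 2-fold or more and a limma p under 0.05 after Benjamini-Hochberg adjustment. No marker was called, and 0.0449% of all probes were. At an unadjusted p under 0.05, 7 of 8 markers were higher, against 2.61% of all probes, and 0 of 8 were lower, against 0.688%. Groups did not overlap for 4 of the 8 (Cd68, Csf1r, Lyz2, and Trem2, all higher), against 0.615% of all probes, and 5 were at least 2-fold higher, against 4.43%. The median change of the 8 was 2.45 on the log2 scale, against −0.044 over all probes tested.

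Adgre1 encodes an adhesion receptor widely used to identify mouse macrophages. In the Fcgr2b-/- mice, Adgre1 was at 3.63, 0.44, 0.32, and 2.95 in replicates 1 to 4, and in the WT mice at 0.82, −1.73, −1.32, and −0.71. In the double-deficient mice it was at 0.41, 1.13, −0.06, and −0.73, and in Sting gt/gt animals at 1.13, −0.31, −0.85, and −1.47. The lower pair of Fcgr2b-/- mice lay below WT replicate 1, so the groups overlapped. The difference from WT was 2.57 (SE 0.79, limma adjusted p = 0.869).

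Cd68 encodes a membrane glycoprotein of lysosomes. Its levels were 2.28, 0.46, 0.48, and 2.90 in the Fcgr2b-/- mice and 0.08, −1.36, −1.30, and −0.59 in the WT mice. In the double-deficient mice they were −0.16, 0.17, −0.08, and −0.29, and Sting gt/gt mice had 0.15, −0.47, −0.27, and −0.40. All 4 Fcgr2b-/- mice lay above the 12 others, and the double-deficient mice were the least spread of the 4 groups (SD 0.19, against 1.25 in the Fcgr2b-/- mice). The difference from WT was 2.32 (SE 0.49, limma adjusted p = 0.228), and a second Cd68 probe gave 2.60 (SE 0.51, limma adjusted p = 0.154).

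Lyz2 encodes lysozyme M, an antibacterial enzyme of macrophages and granulocytes. It was at 2.43, −0.08, −0.13, and 2.63 in the Fcgr2b-/- mice, against −0.50, −2.95, −2.67, and −1.89 in the WT mice. The double-deficient mice were at −0.24, 1.04, −0.53, and −0.93, and the Sting gt/gt mice at −0.65, −0.73, −2.87, and −3.37. All Fcgr2b-/- mice lay above all WT mice, while double-deficient replicate 2 lay between the pairs of Fcgr2b-/- mice. The difference from WT was 3.22 (SE 0.80, limma adjusted p = 0.499). Its neighbor and close paralog Lyz1, whose RNA the probe may share, differed by 3.05 (SE 0.75) and the groups did not overlap for it either.

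Csf1r encodes the receptor for the macrophage growth factors CSF1 and IL34. Its levels were 5.19, 4.21, 4.29, and 5.07 in the Fcgr2b-/- mice and 3.57, 4.14, 3.96, and 3.76 in the WT mice. Double-deficient mice had levels of 4.17, 3.76, 4.23, and 4.34, and the Sting gt/gt mice of 4.15, 3.96, 4.40, and 4.36. The span from the lowest to the highest mouse was narrower than for Adgre1, Cd68, or Lyz2, and all Fcgr2b-/- mice lay above all WT mice. The difference was 0.83 (SE 0.26, limma adjusted p = 0.931). The second, dimmer Csf1r probe differed by 0.19 (SE 0.21), so the probes disagree in size.

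**Figure D1:**
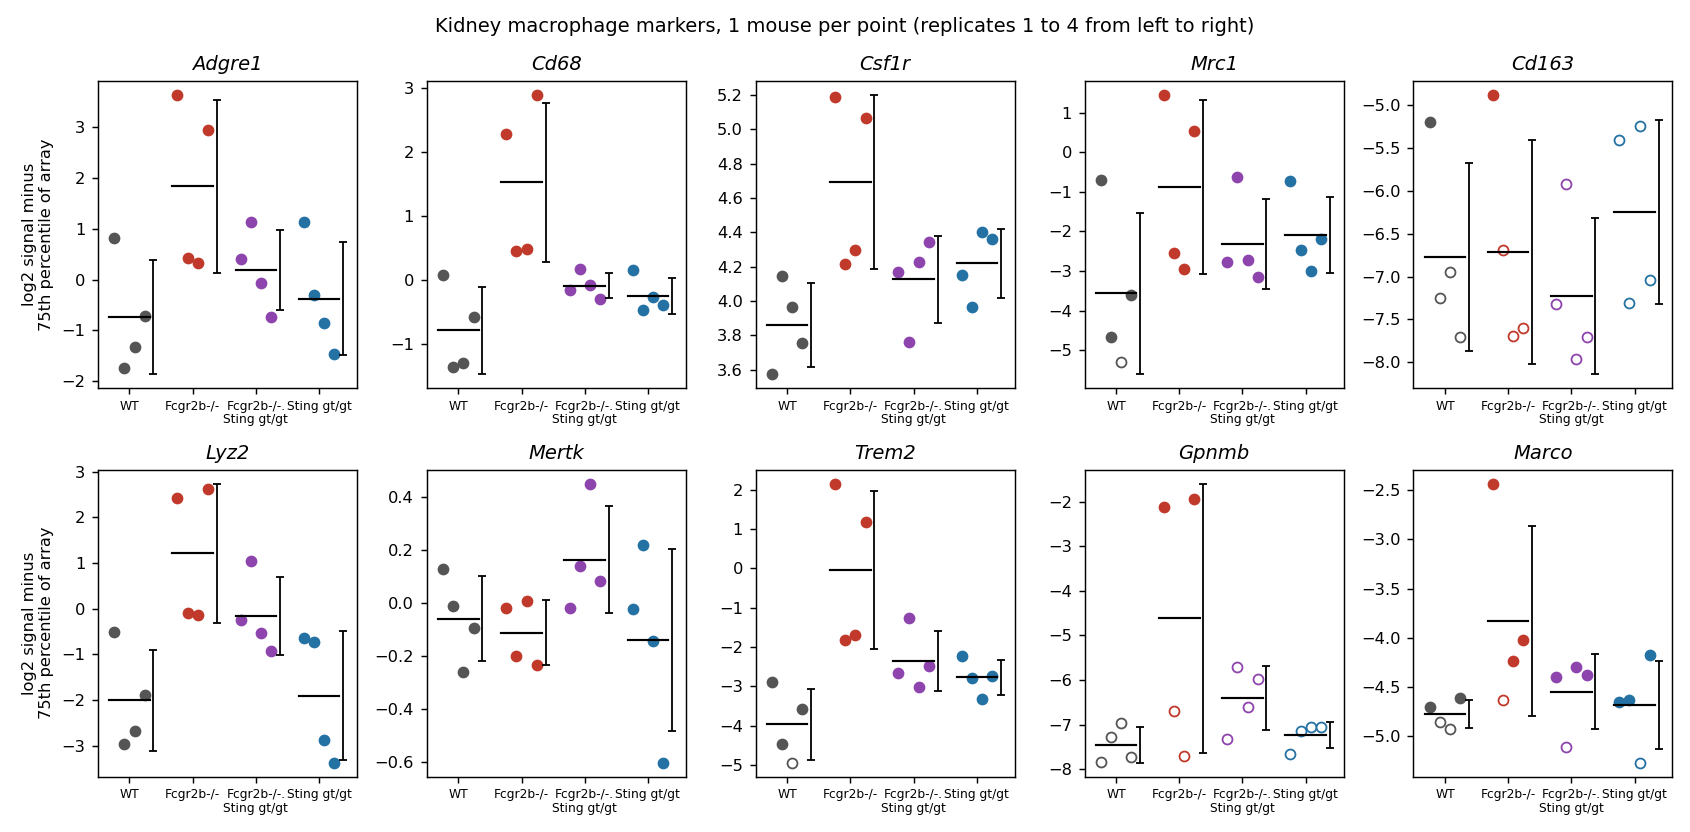
Levels of the 10 macrophage markers by mouse. The y axis is the log2 processed signal of the brightest probe minus the 75th percentile of the array, each panel on its own scale; points are mice (4 per genotype), filled where the probe was well above background and open where it was not, the line is the mean and the bar 1 SD. Replicates 1 and 4 of the Fcgr2b-/- mice stand highest for Adgre1, Cd68, Csf1r, Mrc1, Lyz2, Trem2, and Gpnmb, and Mertk stays between −0.60 and 0.45.

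Trem2 encodes a lipid-sensing receptor of macrophages and Gpnmb a glycoprotein of lysosome-rich macrophages. Trem2 was at 2.15, −1.81, −1.70, and 1.18 in the Fcgr2b-/- mice, against −2.89, −4.46, −4.93, and −3.57 in the WT mice. It was at −2.66, −1.27, −3.01, and −2.48 in the double-deficient mice, and Sting gt/gt mice had −2.23, −2.78, −3.32, and −2.74. All Fcgr2b-/- mice lay above all WT mice, and double-deficient replicate 2 lay above Fcgr2b-/- replicates 2 and 3. WT replicate 3 was not well above background, and Trem2 intensities in the WT mice ran from 15.9 to 100.5. The size of the difference thus rests on low WT signal. The difference from WT was 3.92 (SE 0.76, limma adjusted p = 0.151), the largest of the 8 tested markers. It was 3.19 without Fcgr2b-/- replicate 1, 2.73 with the normexp background correction, and 4.51 without replicate 2 (limma adjusted p = 0.0367), the 1 setting of limma in which it was called, and over all alternatives run the adjusted p ranged from 0.0367 to 1.0.

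Gpnmb was at −2.11 and −1.94 in replicates 1 and 4 of the Fcgr2b-/- mice and not well above background on the 14 other arrays, where it ran from −7.84 to −5.70. The mean over the 4 Fcgr2b-/- mice was at least 1.59-fold above the WT mice and at least 1.75-fold above the double-deficient mice, with the dimmer group set to the lowest signal above background of each of its arrays, or to the signal of the probe where that was higher. These bounds include Fcgr2b-/- replicates 2 and 3, which lay among the other mice. Gpnmb had thus no test, and with no filter on dim probes its difference from WT was not called.

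Mrc1 encodes the mannose receptor, a marker of resident and alternatively activated macrophages, and Cd163 the receptor that takes up haptoglobin-bound hemoglobin. Mrc1 was at 1.45, −2.53, −2.95, and 0.54 in the Fcgr2b-/- mice, at −0.70, −4.66, −5.29, and −3.61 in the WT mice, and at −2.77, −0.63, −2.72, and −3.14 in the double-deficient mice. Sting gt/gt mice were at −0.73, −2.46, −2.99, and −2.19. WT replicate 1, double-deficient replicate 2, and Sting gt/gt replicate 1 all lay above Fcgr2b-/- replicates 2 and 3, so the groups overlapped. The difference from WT was 2.69 (SE 1.06, limma adjusted p = 1.0). Cd163 was above background in WT replicate 1 (−5.19) and Fcgr2b-/- replicate 1 (−4.88), and at −7.96 to −5.25 on the 14 other arrays.

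Marco, a scavenger receptor of marginal zone and alveolar macrophages, was near background: −2.43, −4.63, −4.24, and −4.02 in the Fcgr2b-/- mice and −4.70, −4.85, −4.93, and −4.61 in the WT mice. In the double-deficient mice it was at −4.40, −5.11, −4.30, and −4.37 and in the Sting gt/gt mice at −4.65, −4.63, −5.27, and −4.17. Fcgr2b-/- replicate 1 stood alone, and the difference of 0.94 (SE 0.39, limma adjusted p = 1.0) was 0.48 without it. Mertk, a receptor kinase for the uptake of dying cells, was at −0.02, −0.20, 0.01, and −0.23 in the Fcgr2b-/- mice and 0.13, −0.01, −0.26, and −0.09 in the WT mice. The 16 mice lay between −0.60 and 0.45 for Mertk, and its difference of −0.05 (SE 0.21, limma adjusted p = 1.0) was the smallest of the 8.

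**Figure D2:**
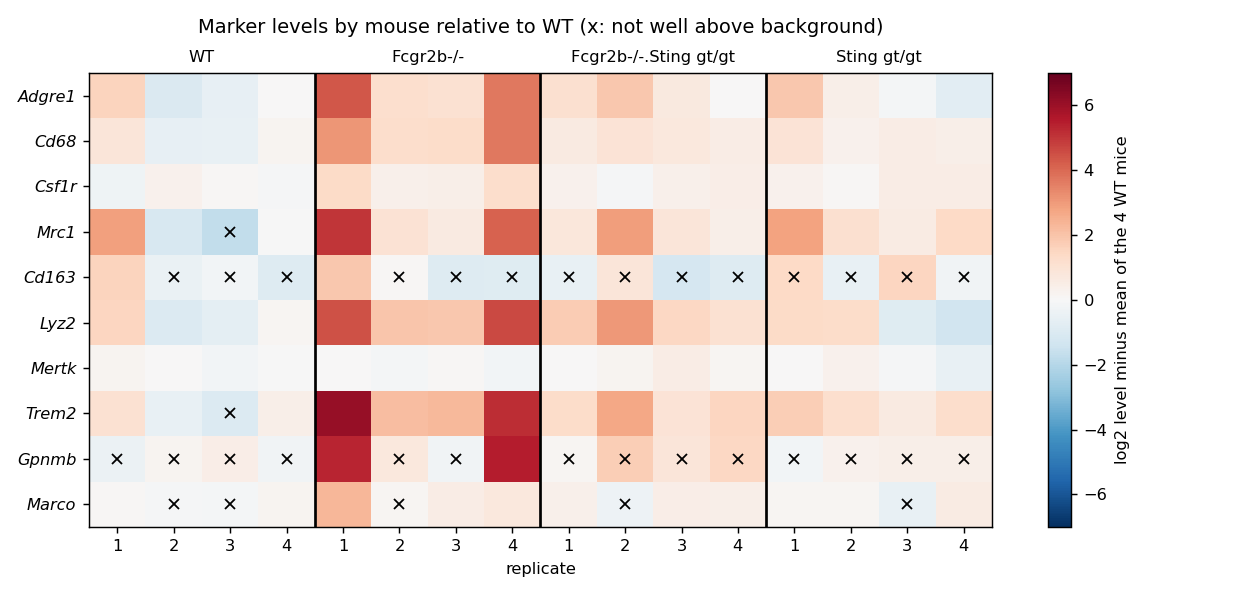
Marker levels of each mouse minus the mean of the 4 WT mice, on the log2 scale given by the color bar (red higher, blue lower), with 1 column per mouse and 1 row per gene. A cross marks a probe not well above background; Gpnmb carries crosses on all arrays but Fcgr2b-/- replicates 1 and 4, and the Mertk row is nearly white.

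The 2 slides did not carry equal shares of the groups, and the values within each are given here. With the slide as a block, the difference of the Fcgr2b-/- from the WT mice was 2.29 for Adgre1 (limma adjusted p = 1.0), 2.22 for Cd68 (0.392), 2.91 for Lyz2 (0.588), and 3.74 for Trem2 (0.275). Within slide 1, which held Fcgr2b-/- replicates 1, 2, and 4 and 2 WT mice, Trem2 differed by 4.18, Lyz2 by 3.39, Cd68 by 2.52, and Adgre1 by 2.79. Within slide 2, which held Fcgr2b-/- replicate 3 and 2 WT mice, the differences were 2.55, 2.15, 1.43, and 1.34, so all 4 genes were higher on both slides.

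Between the double-deficient and the Fcgr2b-/- mice, which differ in Sting, 7 of the 8 tested markers lay lower without Sting and Mertk lay 1.21-fold higher, as did 56.3% of all probes. Trem2 was 4.95-fold, Adgre1 3.13-fold, and Cd68 3.07-fold lower, and Mrc1 (2.72-fold) and Lyz2 (2.60-fold) followed. Csf1r differed by 1.48-fold and Marco by 1.64-fold. No marker and no other probe was called (0% of all probes), with a limma adjusted p of 1.0 for each of the 8. At an unadjusted p under 0.05, 3 of the 8 were lower (Cd68, Csf1r, Trem2), against 1.16% of all probes, and 0 were higher, against 0.606%. The second, dimmer Csf1r probe did not lie lower here, at 0.055 (SE 0.21), so the lower Csf1r rests on 1 probe. At 2-fold or more 5 of the 8 were lower, against 2.71% of all probes. The median of the 8 was −1.41, against 0.047 over all probes.

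Cd68 was the 1 marker of the 8 whose groups did not overlap, with a difference of −1.62 (SE 0.49), and 0.303% of all probes were lower without overlap. Trem2 differed by −2.31 (SE 0.76), Adgre1 by −1.65 (SE 0.79), Lyz2 by −1.38 (SE 0.80), and Mrc1 by −1.44 (SE 1.06), and the double-deficient mice overlapped the lower pair of Fcgr2b-/- mice for each. The difference was smaller without either of the higher pair, the median over the markers being −0.82 without Fcgr2b-/- replicate 1 and −0.94 without replicate 4, against −1.89 and −1.90 without replicates 2 and 3. With the slide as a block it was −0.79. Within slide 1, where double-deficient replicate 1 met Fcgr2b-/- replicates 1, 2, and 4, Trem2 differed by −3.16 and Cd68 by −2.04. Within slide 2, where 3 double-deficient mice met Fcgr2b-/- replicate 3, they differed by −0.55 and −0.55, Lyz2 by −0.0065, and Mrc1 by 0.79, so Mrc1 turned direction there.

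**Figure D3:**
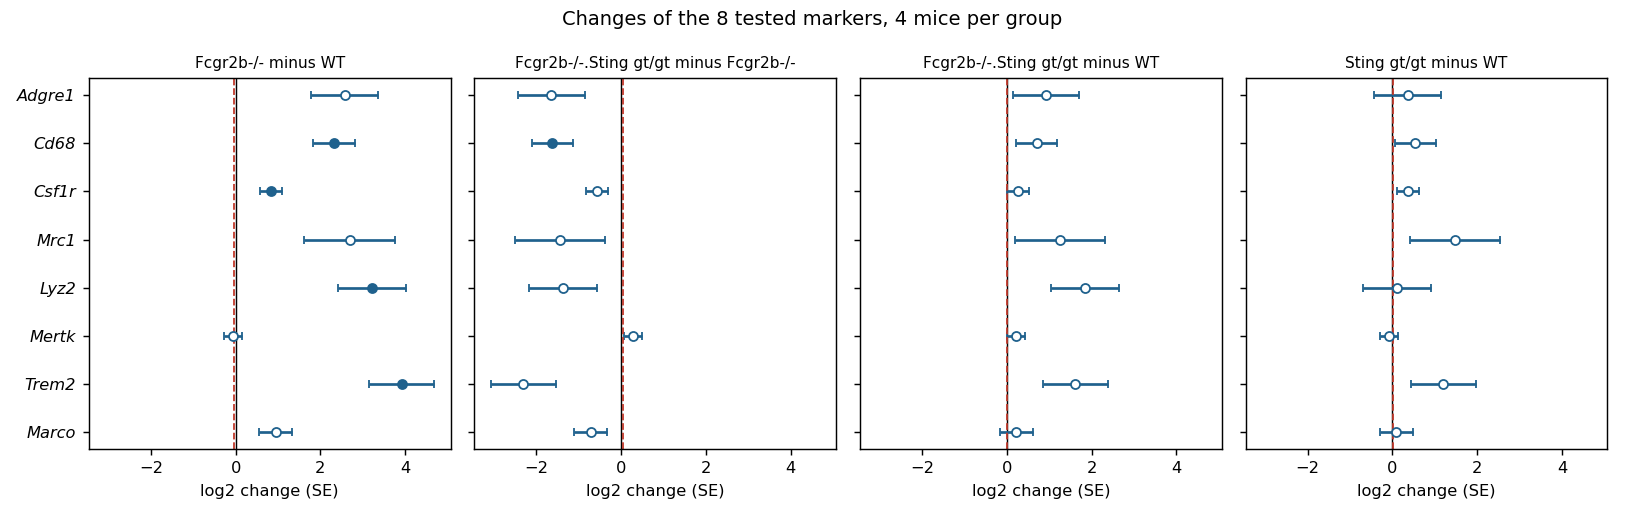
Differences of the 8 tested markers in 4 comparisons, 4 mice per group. The x axis is the log2 difference named above each panel, the bar is 1 standard error of limma, a filled point marks groups that did not overlap, and the dashed line is the median over all probes tested. Cd68, Csf1r, Lyz2, and Trem2 did not overlap in Fcgr2b-/- minus WT, and Cd68 in Fcgr2b-/-.Sting gt/gt minus Fcgr2b-/-.

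The double-deficient mice still lay above the WT mice for all 8 markers, by 0.22 for Mertk up to 1.84 for Lyz2 (SE 0.80), with a median of 0.81 against 0.0058 over all probes, of which 51.2% were higher. None was called (0% of all probes), and 1, Lyz2, had an unadjusted p under 0.05 and was higher, against 0.295% of all probes. The groups overlapped for all 8, while 0.314% of all probes were higher and 0.233% lower without overlap. Trem2 differed by 1.61 (SE 0.76) and Mrc1 by 1.25 (SE 1.06). This comparison shares its WT mice with the one of the Fcgr2b-/- mice and its double-deficient mice with the one above.

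In the Sting gt/gt mice without the Fcgr2b deletion, 7 of 8 markers lay above WT by up to 1.47 (Mrc1, SE 1.06), where 51.4% of all probes did, and none was called (0% of all probes) or had an unadjusted p under 0.05 (3.71% of all probes in either direction). The median was 0.36, and without the library labelled Sting gt/gt replicate 4 it was 0.59, with no marker called. Mrc1 was then at 1.5 and Trem2, at 1.2 with all mice, at 1.19, while Marco turned to −0.077 and Mertk from −0.080 to 0.075. Lyz2 and Marco, at 0.10 and 0.093, turned direction under quantile normalization, median scaling, and the authors' table. In the interaction, which sets the Fcgr2b difference in mice without Sting against that in mice with Sting, 7 of 8 values were negative, with −3.51 for Trem2 (SE 1.08), −2.16 for Cd68 (SE 0.69), and −0.92 for Csf1r (SE 0.37), while 50.6% of all probes were positive. These 3 had an unadjusted p under 0.05, as did 2.74% of all probes on the negative side. For Csf1r this held for the brightest probe only, and the second Csf1r probe was at 0.21 (SE 0.30). The smallest adjusted p among the markers was 0.668, none was called (0% of all probes), and the median was −1.74, against 0.0092 over all probes. Without the library labelled Sting gt/gt replicate 4 the median was −2.09, with −3.50 for Trem2, −2.21 for Cd68, and −0.88 for Csf1r.

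By group mean, the Fcgr2b-/- mice were highest for Adgre1, Cd68, Csf1r, Mrc1, Lyz2, Trem2, and Marco. For Cd68 the step from the Fcgr2b-/- mean to the next group, the double-deficient mice, was 1.62 and exceeded the larger of both SDs, 1.25, and for Trem2 it was 2.31 with an SD of 2.02. For Adgre1 the same step was 1.65 with an SD of 1.71, for Lyz2 1.38 with an SD of 1.53, for Mrc1 the step to the Sting gt/gt mice was 1.22 with an SD of 2.20, and for Csf1r it was 0.47 with an SD of 0.51, so these neighbors did not differ beyond their spread. Double-deficient and Sting gt/gt means lay within the spread of each other for Adgre1, Cd68, Csf1r, Mrc1, Trem2, and Marco, also without Sting gt/gt replicate 4. For Lyz2 the double-deficient mean was 1.74 higher, with an SD of 1.42, but without that replicate the step of 1.25 was under the SD of 1.26. For Csf1r the step from the Fcgr2b-/- to the Sting gt/gt mean was then 0.52, above the SD of 0.51.

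Of a list of 30 identity genes, 26 were tested, 23 were higher than WT (44.7% of all probes were), and 16 of these had an unadjusted p under 0.05 (2.61% of all probes, higher), with a median of 1.85 and none called. By mouse the list lay 2.60, 0.53, 0.36, and 2.15 above the WT mean in Fcgr2b-/- replicates 1 to 4, and replicates 1 and 4 were above 2 and 3 in each of the 5 lists described here. C1qa, a subunit of complement C1q, differed by 2.26 (SE 0.58) with no overlap of the groups, and Ms4a7 by 3.06 (SE 0.75). Fcgr1, the high-affinity activating IgG receptor, differed by 2.55 (SE 0.85). Against the double-deficient mice, 23 of 26 were lower in those mice, 10 at an unadjusted p under 0.05 (1.16% of all probes, lower), with Fcgr1 at −2.27 and a median of −1.26.

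Among growth factor receptors and lineage factors, 16 of 18 tested genes were higher in Fcgr2b-/- than in WT mice, 7 at an unadjusted p under 0.05, with a median of 0.85. For this list and the next, 44.7% of all probes were higher and 2.61% were higher at that p. The median over all probes was −0.044. Csf2rb, the common beta chain of the GM-CSF receptor family, differed by 2.24 (SE 0.66), Csf2rb2 by 2.13 (SE 0.69), and Csf2ra by 1.18 (SE 0.39). Of genes of the phagolysosome and of lipid handling, to which Trem2 and Gpnmb belong in function, 16 of 24 were higher, 2 at an unadjusted p under 0.05, with a median of 0.15. These were Itgax, at 2.52 (SE 0.76), and Lgals3, galectin 3, at 1.04 (SE 0.38). Itgax encodes CD11c, which the study used as a marker of dendritic cells. The 24 genes ran from −0.68 to 2.52, and Trem2 was at 3.92.

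Of the efferocytosis and scavenger genes, 20 of 22 tested were higher, 4 at an unadjusted p under 0.05, with a median of 0.64, beside the same 44.7% and 2.61% of all probes. In the Sting gt/gt mice 19 of the 22 were higher than WT, 3 at an unadjusted p under 0.05, with a median of 0.56. In that comparison 51.4% of all probes were higher, and 3.71% had an unadjusted p under 0.05 in either direction. Cd5l, a secreted scavenger protein of tissue macrophages, differed by 3.05 (SE 1.06) between Fcgr2b-/- and WT mice with no overlap. Its WT mean of −5.71 lay under the lowest signal above background of each WT array (−5.67 to −4.80), which limits the size. All 14 tested genes of alternative activation were higher, 5 at an unadjusted p under 0.05, with a median of 0.99, and the list lay at 3.48 and 2.43 in replicates 1 and 4 and at 0.17 and −0.20 in replicates 2 and 3. The transcription factor Egr2 differed by 3.89 (SE 0.89) and the lectin Chil3 by 3.15 (SE 0.96), and in the double-deficient against the Fcgr2b-/- mice they differed by −2.25 and −2.34. Egr2 was above background in only 2 of the WT mice, so the size of its difference from WT rests on low WT signal. None of these 5 lists had a called gene. Of the 13 genes of the monocyte list, 8 were higher and 5 lower in Fcgr2b-/- than in WT mice, with a median of 1.25. In this list 1 gene of 13 was called, against 0.0449% of all probes. It was Cd300e, a receptor of nonclassical monocytes and the highest of the 13, which rose by 4.57 (limma adjusted p = 0.0350). Cd300e was above background in 3 of the WT mice. No probe at all was called without WT replicate 2, 3, or 4, without Fcgr2b-/- replicate 4, with only the 2 groups compared, or with mice that share the first number of their animal label as random blocks (estimated correlation 0.825), so this call was lost in each.

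**Figure D4:**
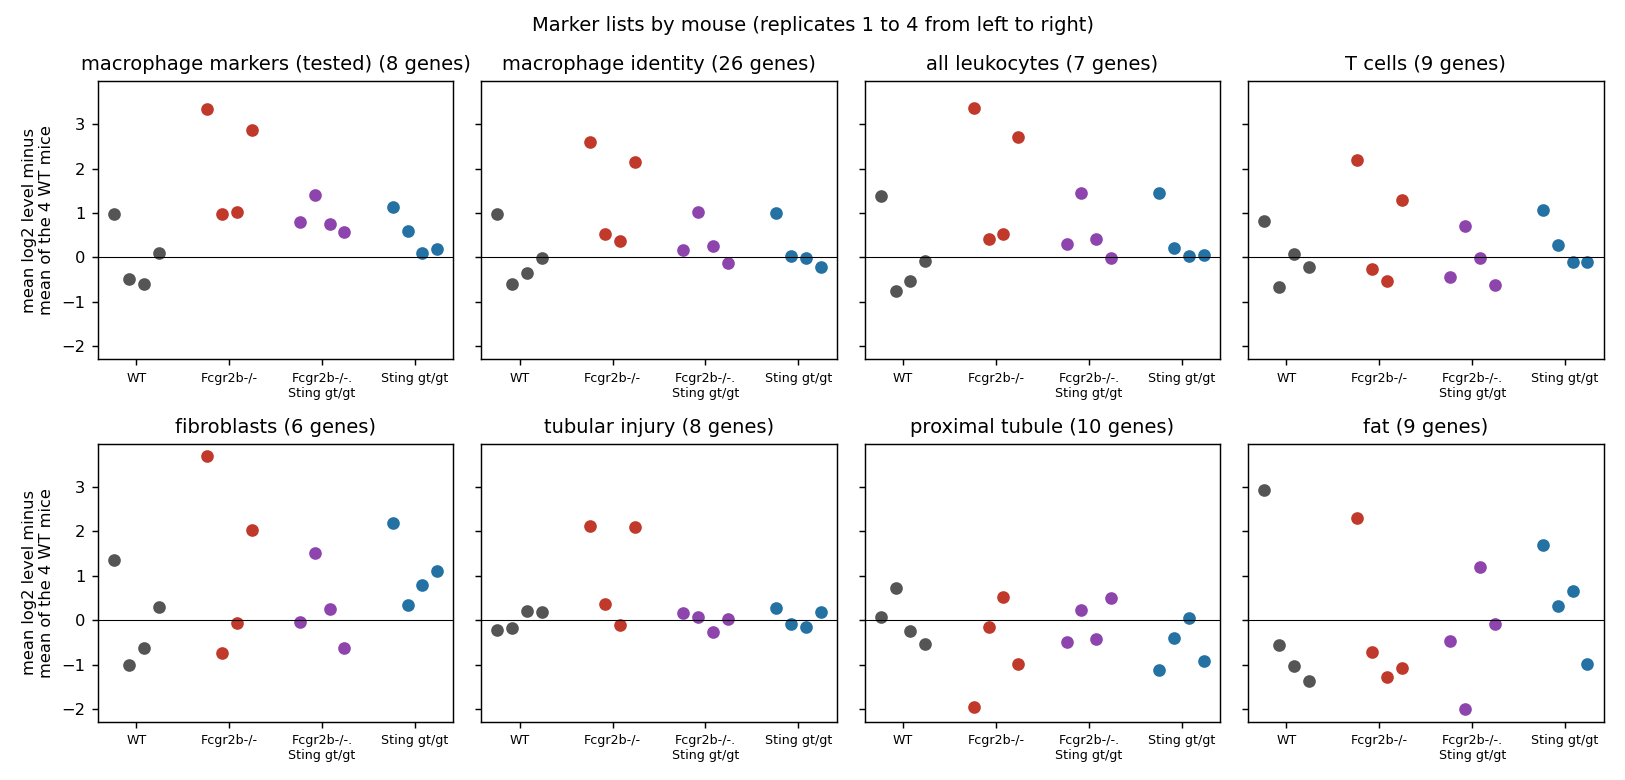
Mean log2 level of 8 gene lists in each mouse minus the mean of the 4 WT mice; points are mice, and the number of genes is above each panel. Replicates 1 and 4 of the Fcgr2b-/- mice are high for the tested markers (3.34 and 2.88), all leukocytes (3.38 and 2.72), and tubular injury (2.13 and 2.10), and WT replicate 1 and Sting gt/gt replicate 1 are high for fibroblasts and fat. For all leukocytes WT replicate 1 (1.38), double-deficient replicate 2 (1.45), and Sting gt/gt replicate 1 (1.44) lie above Fcgr2b-/- replicates 2 and 3.

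Markers of some other cell types lay high in the same mice. The 7 genes of all leukocytes lay 3.38, 0.41, 0.54, and 2.72 above the WT mean in Fcgr2b-/- replicates 1 to 4, and the 6 fibroblast genes lay at 3.69, −0.73, −0.07, and 2.04. Of the 9 T cell genes, 8 were higher in the Fcgr2b-/- mice, at 2.21, −0.27, −0.53, and 1.29 by mouse, and 7 of 8 neutrophil genes were higher, the list lying between −0.24 and 1.90. Of all probes, 44.7% were higher in this comparison. Tubular injury genes, among them Lcn2 and Havcr1, lay at 2.13, 0.37, −0.11, and 2.10, while the other 12 mice lay between −0.27 and 0.27. All 6 podocyte genes were higher than WT (median 0.85), at 0.25 to 1.60 by mouse. Of the 9 dendritic cell genes tested, 8 were higher (median 0.46), at −0.74 to 1.46 by mouse. Other lists differed less: 5 of 7 endothelial genes were higher than WT (median 0.28), 2 of 4 adrenal genes (0.088), and 3 of 6 B cell genes (−0.011). So were 2 of 6 genes of thick limb and collecting duct (−0.041), 1 of 6 red cell genes (−0.25), and 1 of 9 fat genes (−0.37). All 10 proximal tubule genes were lower than WT in the Fcgr2b-/- mice (median −0.42), and all 10 also in the Sting gt/gt mice (median −0.31). Against the Fcgr2b-/- mice, all 10 were higher in the double-deficient mice (median 0.42). By mouse the proximal tubule list lay at −1.96 to 0.51 in the Fcgr2b-/- mice and at −1.11 to 0.71 in the other mice. In each genotype the mice with high Y-linked signal lay above those with low signal for this list. They were WT replicates 1 and 2, Fcgr2b-/- replicate 3, double-deficient replicates 2 and 4, and Sting gt/gt replicate 3. The genotypes held unequal shares of such mice, and the part of this in the proximal tubule differences was not tested. The fibroblast list was also high in WT replicate 1 (1.35), double-deficient replicate 2 (1.52), and Sting gt/gt replicate 1 (2.20), the mice in which Mrc1 stood apart, and the 9 fat genes were at 2.94 in WT replicate 1 and 2.31 in Fcgr2b-/- replicate 1. These 3 mice also lay at 1.38, 1.45, and 1.44 for all leukocytes and at 0.97, 1.02, and 1.01 for the identity list. For T cells they lay at 0.82, 0.71, and 1.08. In each of these 3 lists they were above Fcgr2b-/- replicates 2 and 3. The part of other cell types and of fat in the marker levels was not tested. Y-linked genes were high in Fcgr2b-/- replicate 3 and low in replicates 1, 2, and 4, and mixed in the other genotypes; with their signal as a covariate no marker was called.

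The genes whose levels were most like those of 4 markers over the 16 arrays were sought among 16392 named genes outside the markers. For Adgre1 they were Fcer1g, C1qc, Ctss, Ms4a7, and C1qb, with r from 0.984 to 0.987 and rho from 0.962 to 0.985. For Cd68 they included Lrrc25, Pou2f2, Clec4a1, and Myo1f, with r from 0.970 to 0.972. For Lyz2 they were Cd53, Ms4a6d, Lyz1, Clec4a3, and Ms4a7, with r from 0.955 to 0.978. For Gpnmb they were Lcn2, Il1f6, Fpr2, Cd37, and Hk3, with r from 0.887 to 0.926 but rho from 0.385 to 0.597, since Gpnmb was above background on 2 arrays. Between markers, r was 0.957 for Cd68 and Trem2 and 0.902 for Adgre1 and Mrc1, and −0.052 for Cd68 and Mertk. The points share genotypes, arrays, and their scaling, and these values describe likeness over these 16 arrays.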

How the data were processed

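Kidney RNA of 16 mice was hybridised singly to one-color arrays, and genotype and replicate number came from the labels. The authors deposited the scanner files, which hold an intensity per spot after background subtraction by Agilent Feature Extraction 11.0, with no scaling across arrays. A second deposited table holds log2 values of these arrays, whose making is not given in the sources used here; 16 of 16 columns were closest to their own array. From the scanner files, control and outlier spots were left out, spots of a probe averaged, and each array's 75th percentile subtracted on the log2 scale (Python 3.11.15, pandas 2.3.3, numpy 2.4.6, matplotlib 3.10.9). Probes were named through a RefSeq table (GRCm38.p6), while the array header names another build, so table positions of probes were not used; 32994 probes (58.3%) had a name. Each gene was given by its brightest probe. limma 3.58.1 (R 4.3.3, statmod 1.5.0) was fitted with lmFit and eBayes to 35628 probes, those standing well above background in 4 or more mice, with 1 mean for each genotype and all 16 arrays in 1 fit. Calls needed 2-fold or more and p under 0.05 after Benjamini-Hochberg adjustment. The fit was tested on simulated data.

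The markers, the lists, and the rule for named genes (the 10 markers, called genes of 5 macrophage lists or else up to 3 per list with the smallest p in the first or second comparison, Lyz1, and the 5 genes most like 4 of the markers) were chosen with earlier results of these data known. The monocyte gene Cd300e, the tubular injury genes, and the summaries by mouse were named after their values were seen. Lists of other cell types were only summarised, and not every gene the rule gives is named; 1 gene like Cd68 is not reported here. Alternatives were normexp with an offset of 50, quantile and median scaling, the authors' table, other filters on dim probes, only the groups compared, the methods' Mann-Whitney test, no fold threshold, trended and robust eBayes, the mean of a gene's probes, the slide, replicate number, and animal label as blocks, a Y-linked covariate, and leaving out each mouse in turn. Normexp used the median signal of a spot. Scan time changed with the slide.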

Additional observations from a re-analysis of the deposited data

Results flagged for a closer look

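Dixon's test of the highest and lowest mouse found 3 outlying mice in 40 groups of 4, and chance gives about 1 in 20 groups. Mrc1 stood at −0.63 in double-deficient replicate 2, where the nearest of the other 3 mice was at −2.72. Gpnmb stood at −7.65 in Sting gt/gt replicate 1, below the nearest at −7.14, with all 4 mice not well above background. Marco stood at −5.11 in double-deficient replicate 2, not well above background, below the nearest at −4.40. The second Adgre1 probe, which no comparison used because it was above background on 3 arrays, reached an intensity of 100.5 in the Fcgr2b-/- mice against 19.9 in the WT mice.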

How the results depend on the processing

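Of 1241 single-marker values under the alternatives, 1221 kept their direction and side of the threshold. Part of this count was fixed in advance. Leaving out a mouse of a genotype outside a comparison cannot change its difference. The Mann-Whitney, fold-threshold, and eBayes settings keep the main difference too. No marker was called in the main fit, so the count does not measure how firm the values are. Under the methods' two-tailed exact Mann-Whitney test without adjustment, with 2-fold, 3 markers (Cd68, Lyz2, Trem2) were called in Fcgr2b-/- against WT and 1 (Cd68) in double-deficient against Fcgr2b-/-, each at p = 0.0286, the smallest that 4 against 4 allows; after adjustment none was. With arrays left out in turn, 0 to 1 markers were called in Fcgr2b-/- against WT, Trem2 without Fcgr2b-/- replicate 2. Over all probes the 16 calls of this comparison ran from 0 to 143 under the alternatives, with 0 to 39 when arrays were left out. Of the values near 0 in Sting gt/gt against WT, Lyz2 turned to −0.096 under quantile normalization, −0.14 under median scaling, and −0.071 in the authors' table, and Marco to −0.17, −0.15, and −0.18, and to −0.038 with Y-linked signal as a covariate; the cause was not tested. With arrays left out, Lyz2 ran there from −0.32 to 0.60, Adgre1 from −0.14 to 0.88, Marco from −0.077 to 0.29, and Mertk from −0.20 to 0.075, and Mertk in Fcgr2b-/- against WT from −0.12 to 0.0085. The replicate block changed no call of a marker, and the median in Fcgr2b-/- against WT stayed 2.45 under it; the numbers do not pair the mice, since 11 of 24 same-numbered pairs had r over 0.1. Genes near background, such as Marco, Cd163, and Gpnmb, are limited by their signal, as are Trem2 and Mrc1 in some WT mice.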
